A study of Arabidopsis thaliana with 24 samples.

Results

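The glutathione S-transferase (GST) superfamily of Arabidopsis roots was followed here, in wild-type and *stop1* seedlings, across 6 nutrient media. The members were taken as a list of 53 annotated loci, of which 51 were in the expression table of 20450 genes. They comprised 27 tau, 12 phi, 3 theta, 2 zeta and 3 lambda genes, 3 dehydroascorbate reductases (DHAR) and *TCHQD*. *GSTU15* and *GSTF5* were not analysed here.

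GSTs join the tripeptide glutathione to reactive or foreign small molecules, and the conjugates are then carried into the vacuole by ABC-type pumps. The tau and phi classes are specific to plants, have expanded through tandem duplication, and are known for strong induction by herbicide safeners, pathogens, oxidants and metals. Theta enzymes reduce organic hydroperoxides, zeta enzymes act in tyrosine breakdown, and the lambda and DHAR classes work as thiol transferases or as recyclers of ascorbate. Many tau and phi genes respond to TGA transcription factors, a group of bZIP proteins that bind the bases TGACG, and as-1 type elements carry a pair of such sites.

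Wild-type was Col-0, and *stop1* was a T-DNA insertion line in the same background that lacks normal levels of the zinc finger factor STOP1, which controls responses to acidity and aluminium. Seedlings were exposed for 16 h to liquid media named +Pi_pH6 (1 mM phosphate, pH 6), -Pi_pH6 (0 mM phosphate, pH 6), +Pi_pH5 (1 mM phosphate, pH 5), -Pi_pH5 (0 mM phosphate, pH 5), +Al (0 mM phosphate, pH 5, with AlCl3) and ++Fe (0.1 mM phosphate, pH 5, with 0.1 mM added FeSO4). The labels give 100 µM AlCl3, whereas the study's text gives a higher concentration. Each of the 12 conditions had 2 replicates, and each replicate was RNA from the excised root tips of many pooled seedlings, so that 24 libraries were measured by RNA-seq. The *stop1* mutant was a single insertion line.

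The libraries held 17027929 to 30516150 reads on genes, and 1 read corresponded to 0.0326 to 0.0572 CPM (counts scaled to a common library size by the authors). *STOP1* itself ranged from 108 to 177 CPM in wild-type libraries and from 28.8 to 57.8 CPM in *stop1* libraries, without overlap. The sum of 9 root markers was 204 and 205 CPM in *stop1* +Al and 242 CPM in wild-type +Al replicate 2, against 271 to 391 CPM in the other 21 libraries. Within that sum *EXPA7*, a root hair gene, was at 21.6 and 19.9 CPM in *stop1* +Al against 88.9 and 97.1 CPM in *stop1* -Pi_pH5. In bulk root tissue, fewer cells of a type and less RNA per cell cannot be told apart. The sum of 6 leaf markers exceeded 100 CPM in 5 libraries, among them wild-type +Al replicate 1 (332 CPM), and lay between 10.4 and 46.3 CPM in the other 19. The part of either marker group in the results below was not tested directly. Counts that moved in fits without these 5 libraries are given below. Whether the labels of the *stop1* +Pi_pH6 and *stop1* +Pi_pH5 libraries had been exchanged could not be settled, and the deposited labels were kept.

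The promoters of the members were searched for TGACG on both strands, from 250 bases before to 50 bases after the annotated start of each gene (RefSeq sequences, TAIR10.1 build). The motif was found in 21 of 53 members (39.6%) and in 23.1% of all 27444 promoters. The pair TGACGNNNNNNNTGACG was found in 21 promoters in all (0.0765%), and 2 of these belonged to members, *GSTU1* and *GSTU7*, the outermost genes of a cluster of 7 tau genes on chromosome 2. Their pairs are shown because all 7 genes of that cluster rose with iron in wild-type, with each TGACG in capitals and 7 bases between the pair.
GSTU1: gacgaaTGACGttggcaaTGACGtgcata
GSTU7: gaatggTGACGtcaccagTGACGaacaag
The *GSTU1* window lies at chr2:12632593-12632621 and is printed on the gene strand, which is the minus strand. The *GSTU7* window lies at chr2:12618938-12618966 and is printed on the plus strand, opposite to the gene. In *GSTU7* the first site overlaps the palindrome TGACGTCA, which was found in 0.627% of all promoters and in 1 member. Single sites in *GSTU22* and *GSTU24*, which belong to other clusters, are shown for comparison because both genes rose with iron in both genotypes and with aluminium in *stop1*.
GSTU22: ataagcataaTGACGtaagcagtgg
GSTU24: caaagcatgcTGACGcaggcagtgg
These windows lie at chr1:29474076-29474100 (minus strand) and chr1:5869364-5869388 (plus strand). A matched motif is a description of the sequence, and it is not evidence of binding. *GSTF6*, *GSTF7*, *GSTU4*, *GSTU10*, *GSTU12* and *GSTF14*, which are among the members with the largest responses below, had no TGACG in this window, while *GSTF3* and *GSTU3*, also among them, each had 1. The motif was also found in *GSTU20* and *GSTU27*, which were called lower in a metal comparison below. *GSTU11*, *GSTF10*, *GSTF13*, *GSTT1* and *DHAR1*, called in none of the 4 metal comparisons, had it as well.

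Levels differed widely between members. Per kilobase of annotated exon, *GSTF9* averaged 1856 CPM over the 24 libraries and *GSTF10* 1332 CPM. Both are phi-class genes that stand next to each other on chromosome 2, and they ranked 13 and 28 in the whole table by mean CPM. The next levels per kilobase were those of *DHAR1* (473 CPM), *GSTU19* (439 CPM) and *GSTF7* (366 CPM). At the other end, *GSTU21* averaged 1.12 CPM and *GSTF12* 0.45 CPM per kilobase. *GSTF12* encodes the anthocyanin carrier TT19, and 48 of the 51 members had more than 3 reads in every library. *GSTF9* and *GSTF10* had a ratio of the highest to the lowest condition mean of 2.07 and 1.57, whereas *GSTF6* had a ratio of 116 and *GSTF14* a ratio of 250.2. The mean of *GSTF9* was highest in wild-type ++Fe (3462 CPM), and *GSTF9* was among the phi members that rose with iron in wild-type below.

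Summed over the 51 members, the level was 6649 and 6498 CPM in wild-type +Pi_pH6 and 6088 and 5763 CPM in wild-type -Pi_pH5. It was 11907 and 13435 CPM in wild-type ++Fe, with no overlap between the groups. In wild-type +Al the sum was 6508 and 8725 CPM. In *stop1* the sum was 7005 and 6850 CPM in -Pi_pH5, 13220 and 11838 CPM in +Al and 11473 and 12876 CPM in ++Fe. The *stop1* +Al libraries therefore lay above both wild-type +Al libraries, and the *stop1* ++Fe range overlapped that of wild-type ++Fe.

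**Figure D1:**
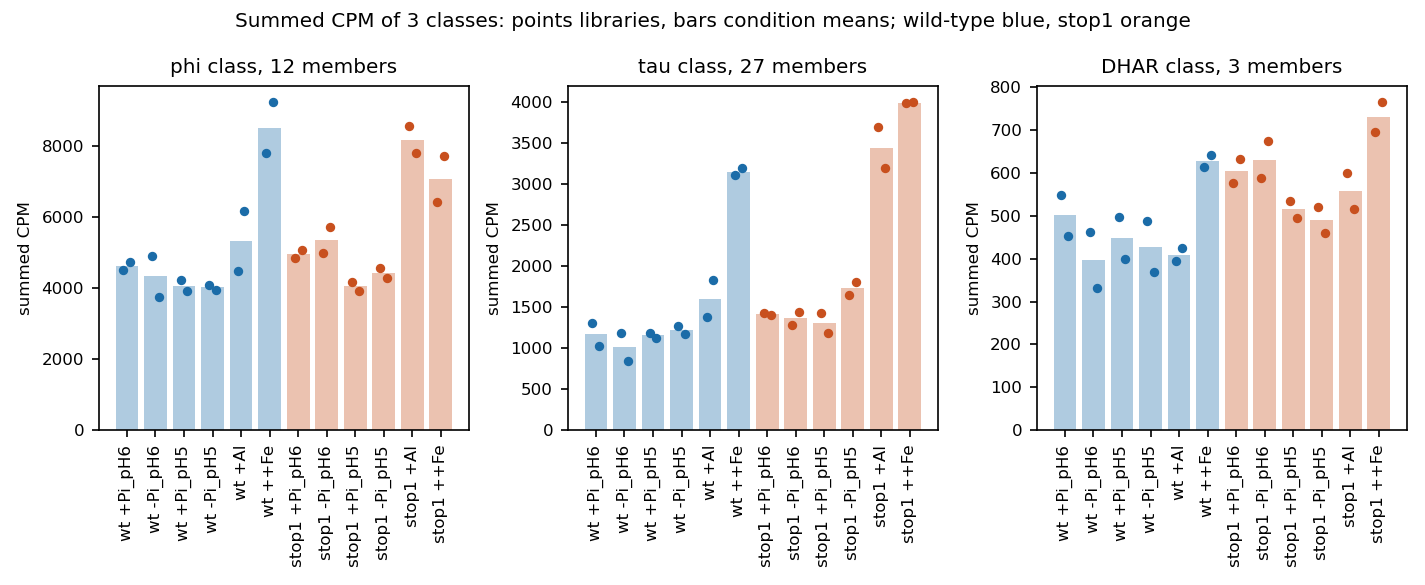
Summed CPM (vertical axes, from 0) of the 12 phi, 27 tau and 3 DHAR members in each of the 12 conditions, with a bar for the condition mean and a point for each of the 2 replicates. In the tau class the ++Fe libraries of wild-type (3107 and 3194 CPM) and both metal media in *stop1* (3194 to 3992 CPM) stand above all libraries of the 4 media without a metal (844 to 1808 CPM).

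Excess iron was compared with the +Pi_pH6 control in each genotype by limma on log2(CPM + 1), with 1 coefficient per condition, Benjamini-Hochberg adjustment over all 20450 genes and a call at an adjusted p under 0.05. These media differ in phosphate and pH as well as in iron. In wild-type 24 members rose and 2 fell, where 12.3% of all genes rose and 9.38% fell. In *stop1* 21 rose and 3 fell, where 9.16% of all genes rose and 5.59% fell. Of the 24 members that rose in wild-type, 20 (83.3%) also rose in *stop1*, and these made up 95.2% of the *stop1* list. The same overlap was not counted over all genes, so these shares have no background value beside them. Over the members the median log2 fold change was 0.61 for wild-type and 0.32 for *stop1*, and over all genes it was -0.01 and -0.03.

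On the log2(CPM + 1) scale, which understates changes of members near 0, the largest rises with iron in both genotypes were those of a pair of adjacent phi genes on chromosome 1. *GSTF7* (AT1G02920) was at 34.2 and 46.2 CPM in wild-type +Pi_pH6 and at 1381 and 1651 CPM in wild-type ++Fe (log2 fold change 5.21, SE 0.27, limma adjusted p = 2.3e-09). *GSTF6* (AT1G02930), whose enzyme joins glutathione to indole-3-acetonitrile in camalexin synthesis, was at 26.1 and 27.1 CPM in the control and at 979 and 948 CPM with iron (log2 fold change 5.13, SE 0.32). In *stop1* ++Fe *GSTF6* was at 406 and 687 CPM and *GSTF7* at 715 and 1082 CPM (log2 fold changes 4.09 and 3.63). The wild-type ++Fe libraries lay above the *stop1* ++Fe libraries for both genes, but the difference between the genotypes did not pass the test for either (log2 difference -0.87, SE 0.32, limma adjusted p = 0.32 for *GSTF6*, and -0.78, SE 0.27, adjusted p = 0.26 for *GSTF7*). The 2 genes are near copies, with 10.3% and 10.04% of their 50-base stretches found elsewhere in the genome, so part of their reads could be split between them.

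*GSTF3*, another phi gene, was nearly silent in the control (3 and 0 reads) and held 182 and 248 reads in wild-type ++Fe, a 132-fold ratio of scaled reads (95% interval 44.8 to 642, counting error only), which exceeds the fold changes of *GSTF6* and *GSTF7*, and its log2 fold change was 3.35 (SE 0.46). In the tau class, *GSTU4* went from 3.88 and 2.59 to 54.9 and 43.9 CPM (log2 fold change 3.58, SE 0.50) and *GSTU22* from 16.01 and 17.04 to 173 and 136 CPM (3.14, SE 0.26). *GSTU10* rose from 6.78 and 7.99 to 71.4 and 64.1 CPM (3.04, SE 0.19), and *GSTU8* from 92.1 and 65.8 to 464 and 588 CPM (2.73, SE 0.25). *GSTU3* held 7 and 6 reads in the control and 192 and 153 reads with iron, a 24.4-fold ratio (interval 14.1 to 46.3, log2 fold change 2.76, SE 0.42). All of these rose in *stop1* ++Fe as well, where the log2 fold changes were 2.45 for *GSTF3*, 2.97 for *GSTU4*, 2.92 for *GSTU22*, 2.44 for *GSTU10*, 2.76 for *GSTU8* and 2.60 for *GSTU3*. *GSTU1* rose there from 26.4 and 24.1 to 146 and 160 CPM (2.55, SE 0.25). *GSTU19*, an abundant tau enzyme with wide substrate range, rose from 288 and 214 to 1025 and 959 CPM in wild-type (1.99, SE 0.20) and reached 1521 and 1406 CPM in *stop1* ++Fe, its highest level in any library. *GSTU24* and *GSTU25*, whose enzymes conjugate the explosive trinitrotoluene, rose with log2 fold changes of 1.76 and 2.17 in wild-type and 2.17 and 2.79 in *stop1*.

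By class, 16 of 27 tau and 5 of 12 phi members rose in wild-type ++Fe, and 1 of each fell. The corresponding counts in *stop1* ++Fe were 15 tau and 4 phi members higher and 2 tau and 1 phi member lower. The members that fell were *GSTF14* in both genotypes (-3.49 and -5.52, SE 0.46), *GSTU21* in both (-0.91, SE 0.28, limma adjusted p = 0.031, and -0.94, SE 0.28, adjusted p = 0.034) and *GSTU20* in *stop1*. With -Pi_pH5 as the control the *GSTF14* falls were smaller, -1.35 in wild-type and -2.64 in *stop1*, and were still called. The *GSTU21* call passed in 8 of 15 alternative analyses in wild-type and in 11 of 16 in *stop1*. In wild-type it was lost without either +Pi_pH6 library (-0.99 and -0.82), without ++Fe replicate 1 (-0.60) and with -Pi_pH5 as the control (-0.12, adjusted p = 0.79). The genotypes differed directly in ++Fe for 1 member that was higher in *stop1*, *GSTF4* (log2 difference 0.61, SE 0.14, limma adjusted p = 0.04), and 1 that was lower, *GSTF14* (-2.32, SE 0.46, adjusted p = 0.014), where 0.318% and 0.895% of all genes were called. The *GSTF4* call was close to the threshold and was lost without any 1 of 15 libraries, and the *GSTF14* call was lost without wild-type ++Fe replicate 2 or *stop1* ++Fe replicate 1. The interaction of genotype and ++Fe called 0 members with limma, where 0.0196% of all genes were called higher and 0.0293% lower. At an unadjusted p under 0.05 the count was 4 members, and edgeR's likelihood ratio test and DESeq2 each called 1 member lower. Here and below, counts at an unadjusted p have no share of all genes beside them, because that share was not counted.

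**Figure D2:**
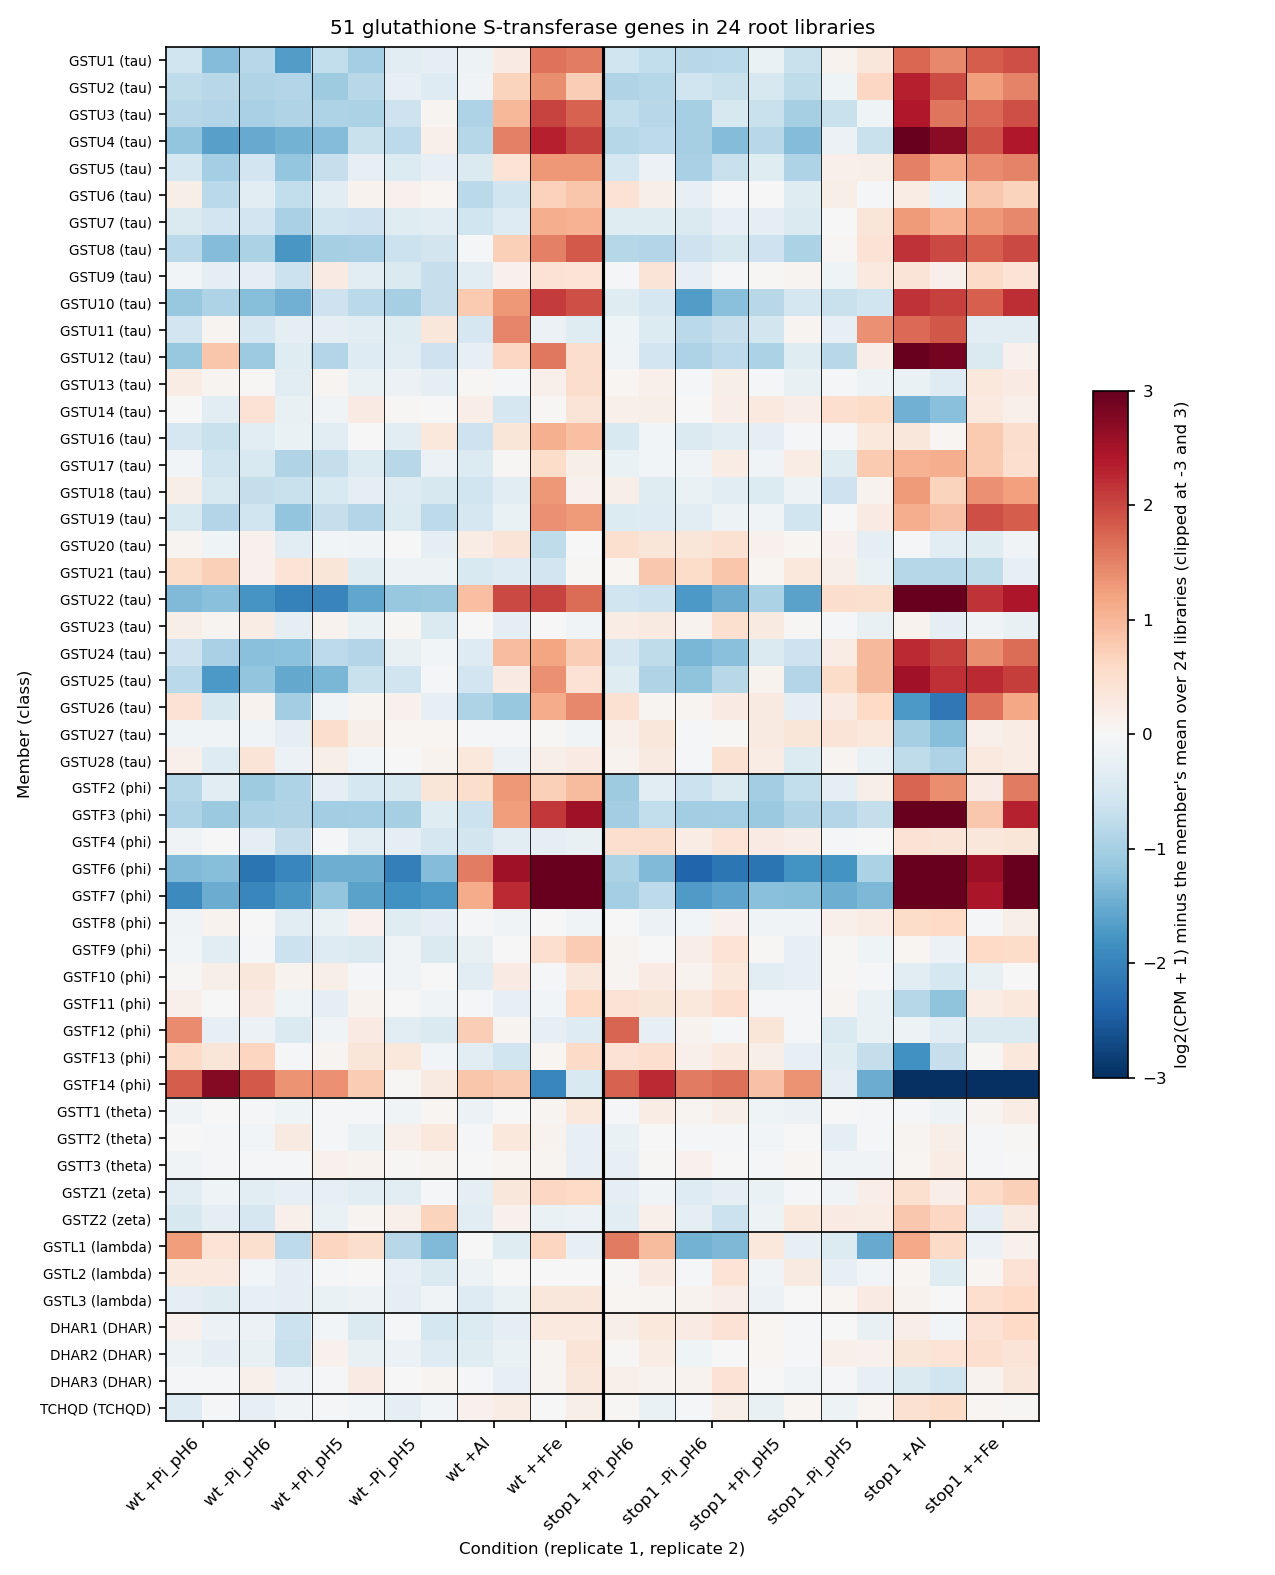
Level of each of the 51 members (rows, ordered by class) in each of the 24 libraries (columns, by condition), as log2(CPM + 1) minus the mean of that member over the 24 libraries, with red above and blue below that mean and colours clipped at -3 and 3. Many tau rows are red in the ++Fe libraries of both genotypes and in *stop1* +Al, and *GSTF14* is blue in the same *stop1* libraries.

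Aluminium was compared with -Pi_pH5, the medium that differs from it by AlCl3 alone. In wild-type 5 members rose and 0 fell, where 2.63% of all genes rose and 1.37% fell. All 5 were also higher in the other 3 metal comparisons: *GSTF6*, *GSTF7*, *GSTU22*, *GSTU10* and *GSTU8*. At an unadjusted p under 0.05 the count in either direction was 14 members, and edgeR's likelihood ratio test and DESeq2 each called 2 members lower. *GSTF6* was at 15.5 and 26.5 CPM in -Pi_pH5 and at 197 and 397 CPM in +Al (log2 fold change 3.72, SE 0.32, limma adjusted p = 2.7e-06). *GSTF7* was at 36.4 and 39.2 CPM and at 282 and 624 CPM (3.44, SE 0.27). *GSTU22* went from 18.6 and 18.8 to 78.7 and 166 CPM (2.55, SE 0.26). In each of these 3 genes replicate 2 was the higher +Al library, and both +Al libraries lay above both control libraries. The SD of the members' differences between replicates was 0.66 on the log2 scale in wild-type +Al, the largest of the 12 conditions. Wild-type +Al replicate 1 was also the library with 332 CPM of leaf markers. *GSTU10* went from 7.47 and 9.55 to 28.5 and 41.0 CPM (1.90, SE 0.19), and *GSTU8* from 104 and 111 to 157 and 267 CPM (0.92, SE 0.25, adjusted p = 0.047). The *GSTU8* call passed in 11 of 15 alternative analyses, in which only libraries of this comparison were left out in turn. It was lost without +Al replicate 2 (0.55) and without either control library (0.87 and 0.97). Without +Al replicate 1, 10 members rose, without the 5 libraries highest in leaf markers 8 rose, and without any 1 of 17 libraries 4 rose.

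In *stop1* the response to the same medium was wider. In +Al 23 members rose and 7 fell against *stop1* -Pi_pH5, where 15.4% of all genes rose and 15.6% fell, and the members' median log2 fold change was 0.30 against -0.00 over all genes. The 5 members that rose in wild-type were all among the 23. *GSTF6* reached 1531 and 1509 CPM from 18.6 and 34.5 CPM (log2 fold change 5.85, SE 0.32, limma adjusted p = 1.3e-09) and *GSTF7* 2110 and 2046 CPM from 46.7 and 50.4 CPM (5.39, SE 0.27). *GSTU10* rose from 9.72 and 10.3 to 75.6 and 69.7 CPM (2.75, SE 0.19), and *GSTU8* from 168 and 218 to 733 and 641 CPM (1.83, SE 0.25). The values of *GSTF6* and *GSTF7* were the 2 largest log2 rises of any member in the 20 limma comparisons. The abundant *GSTF9*, at 2275 and 2027 CPM in *stop1* -Pi_pH5 and 2295 and 1979 CPM in *stop1* +Al, did not pass the test (-0.01, SE 0.20).

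Members at low levels changed as well. *GSTF3* held 4 and 7 reads in *stop1* -Pi_pH5 and 426 and 373 reads in *stop1* +Al, a 72.9-fold ratio (95% interval 40.5 to 147, counting error only, log2 fold change 3.98, SE 0.46). *GSTU12* held 17 and 59 reads and then 627 and 466 reads (14.4-fold, interval 11.4 to 18.5, log2 fold change 3.35, SE 0.52). *GSTU3* was at 0.527 and 1.2005 CPM and then at 11.7 and 6.36 CPM (2.40, SE 0.42). *GSTU4* rose from 8.76 and 6.00 to 100 and 71.2 CPM (log2 fold change 3.37, SE 0.50) and *GSTU22* from 60.3 and 58.3 to 478 and 481 CPM (2.99, SE 0.26). In each of these genes both +Al libraries lay well above both control libraries. *GSTF2*, a phi enzyme that binds small indoles such as camalexin, rose from 221 and 306 to 909 and 704 CPM (1.62, SE 0.37, limma adjusted p = 0.0030). *GSTU17*, known for a role in light and drought signalling, rose by less (0.87, SE 0.31, adjusted p = 0.04), and *GSTF8*, a stress reporter gene, by 0.38 (SE 0.13, adjusted p = 0.04). Both calls were close to the threshold. That of *GSTU17* passed in 8 of 15 alternative analyses (0.30, adjusted p = 0.55, without *stop1* -Pi_pH5 replicate 1) and was also lost without either +Al library. That of *GSTF8* passed in 10 of 15, and was lost without any 1 of the 4 libraries compared (0.35 to 0.41).

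The members that rose with aluminium in *stop1* and with iron in wild-type, comparisons that share no library, overlapped in 16 genes, 66.7% of the 24 and 69.6% of the 23. Such overlaps were not counted over all genes, so whether this sharing exceeds that of other genes was not tested. The 2 members that fell with iron in wild-type, *GSTF14* and *GSTU21*, were among the 7 that fell with aluminium in *stop1*, with the limit given above for *GSTU21* in wild-type. *GSTU12* and *GSTF4* were among the genes that rose with aluminium in *stop1* and did not pass the test with iron in either genotype.

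**Figure D3:**
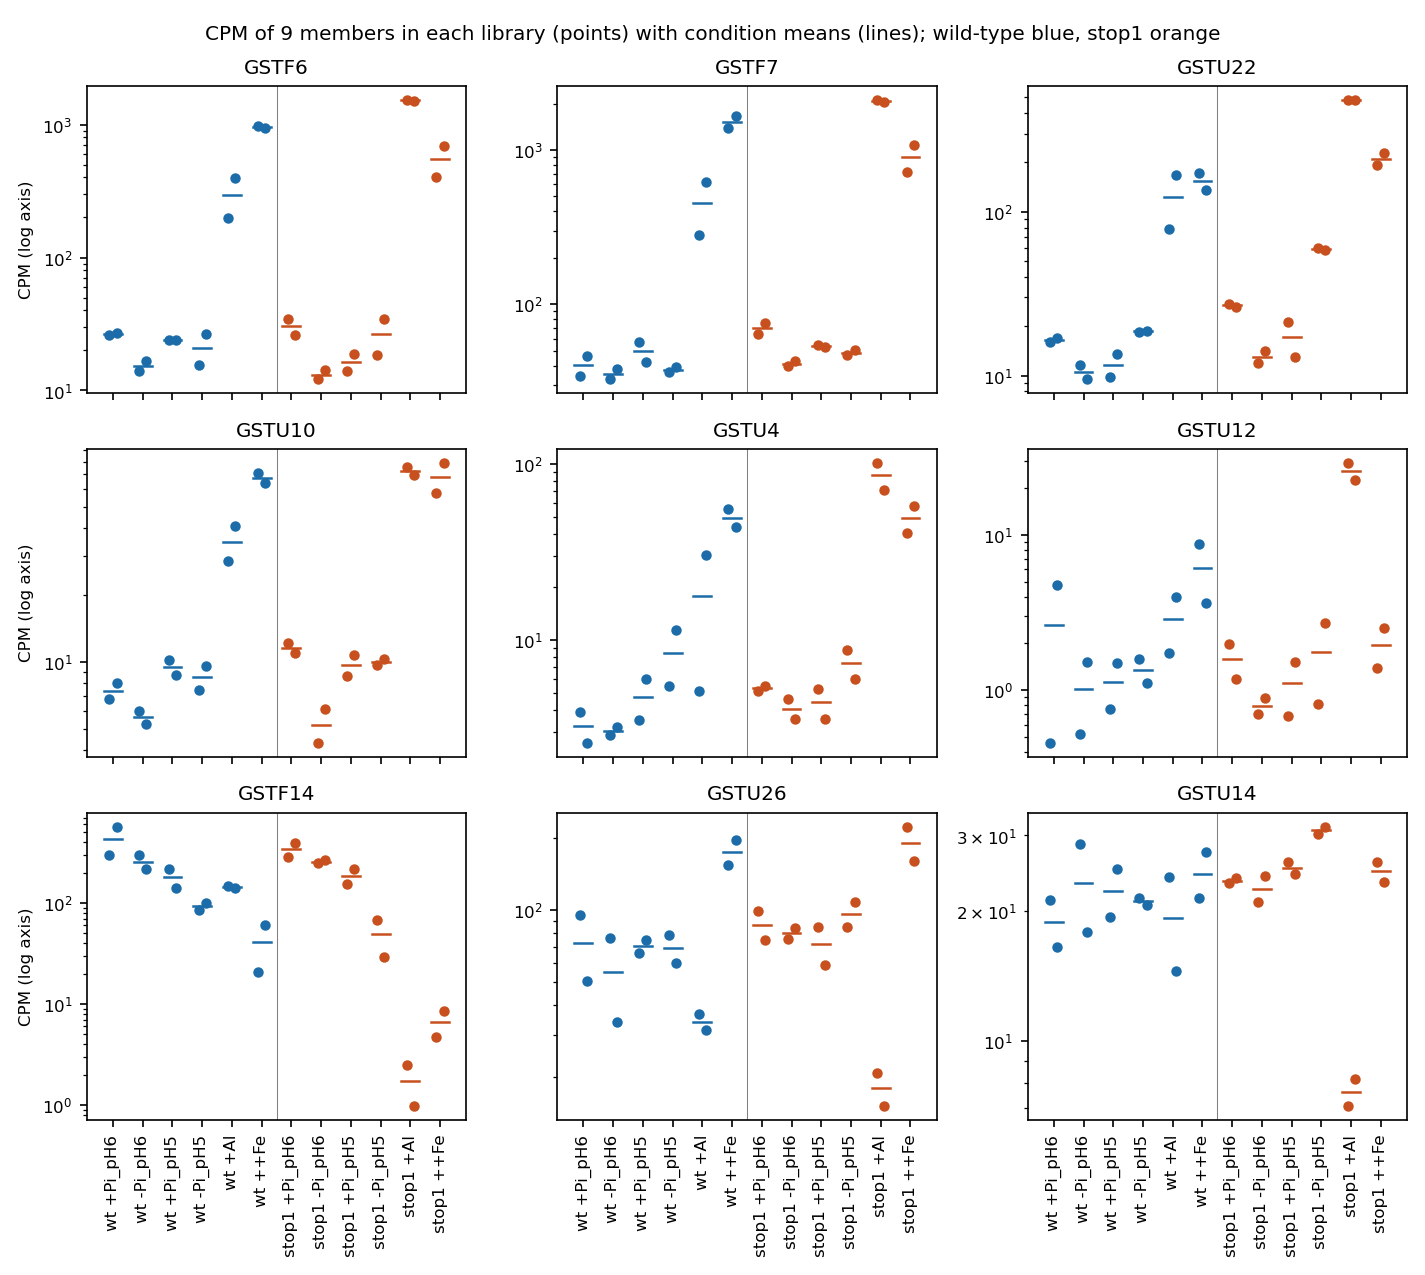
CPM of 9 members (vertical log axes) in the 12 conditions, with a point for each of the 2 replicates and a line for the condition mean. *GSTF6* and *GSTF7* are at 12.1 to 75.9 CPM in the 4 media without a metal and at 197 to 2110 CPM with aluminium or iron, and *GSTF14* runs the other way in *stop1*.

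The genotypes were then compared directly within +Al. In *stop1* 23 members were higher and 5 lower than in wild-type, where 11.2% of all genes were higher and 8.92% lower. The higher members comprised 15 tau and 5 phi genes, *GSTZ2*, *GSTL3* and *DHAR2*. The call of *GSTZ2* passed in 8 of 14 alternative analyses, that of *GSTL3* in 10 and that of *DHAR2* in 12. *DHAR2*, a cytosolic dehydroascorbate reductase, was at 59.3 and 66.6 CPM in wild-type and 99.7 and 103 CPM in *stop1* (log2 difference 0.68, SE 0.15, limma adjusted p = 0.0035). *GSTU25* was at 24.98 and 45.1 CPM in wild-type and 222 and 177 CPM in *stop1* (2.52, SE 0.39). The other largest log2 differences were 2.88 for *GSTF3*, 2.84 for *GSTU12*, 2.63 for *GSTU4*, 2.44 for *GSTF6*, 2.30 for *GSTF7*, 2.06 for *GSTU22* and 1.97 for *GSTU3*. The lower members were *GSTF14*, *GSTU14* (-1.20), *GSTU27* (-1.10), *GSTU28* (-0.91) and *GSTF11* (-0.89). *GSTU3* and *GSTU28* were each called in 10 of 14 alternative analyses and *GSTF11* in 12. Without wild-type +Al replicate 1 the count of higher members was 17, and without replicate 2 it was 26.

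The interaction asks whether the change from -Pi_pH5 to +Al differed between the genotypes. It called 8 members with a larger rise in *stop1* and 3 with a lower value, where 2.89% and 3.77% of all genes were called. The 8 were *GSTF3* (log2 difference of fold changes 2.99, SE 0.66), *GSTU4* (2.74, SE 0.71), *GSTU12* (2.69, SE 0.74), *GSTF6* (2.13, SE 0.45), *GSTU3* (2.09, SE 0.60), *GSTF7* (1.95, SE 0.38), *GSTU2* (1.31, SE 0.36) and *GSTU7* (1.12, SE 0.21). The 3 were *GSTF14* (-4.77, SE 0.65), *GSTU14* (-1.72, SE 0.31) and *GSTU27* (-1.40, SE 0.17). *GSTF7*, *GSTF14*, *GSTU14* and *GSTU27* were called in all 19 alternative analyses of this interaction and *GSTU7* in 18. *GSTF6* was called in 15, *GSTF3* in 13, *GSTU2* in 10, *GSTU4* in 9, *GSTU12* in 8 and *GSTU3* in 7. The *GSTF3*, *GSTU12* and *GSTU3* calls were lost with edgeR's likelihood ratio and quasi-likelihood tests and with DESeq2. The *GSTU4* call was lost with the quasi-likelihood test and DESeq2, and that of *GSTU2* with the quasi-likelihood test. The higher count was smaller without wild-type +Al replicate 1, without *stop1* -Pi_pH5 replicate 1 and without the 5 libraries highest in leaf markers. It was larger without wild-type +Al replicate 2. In the fit without the 5 libraries fewer of all genes were called higher as well. With only the libraries compared 4 members were called higher, where 1.88% of all genes were.

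**Figure D4:**
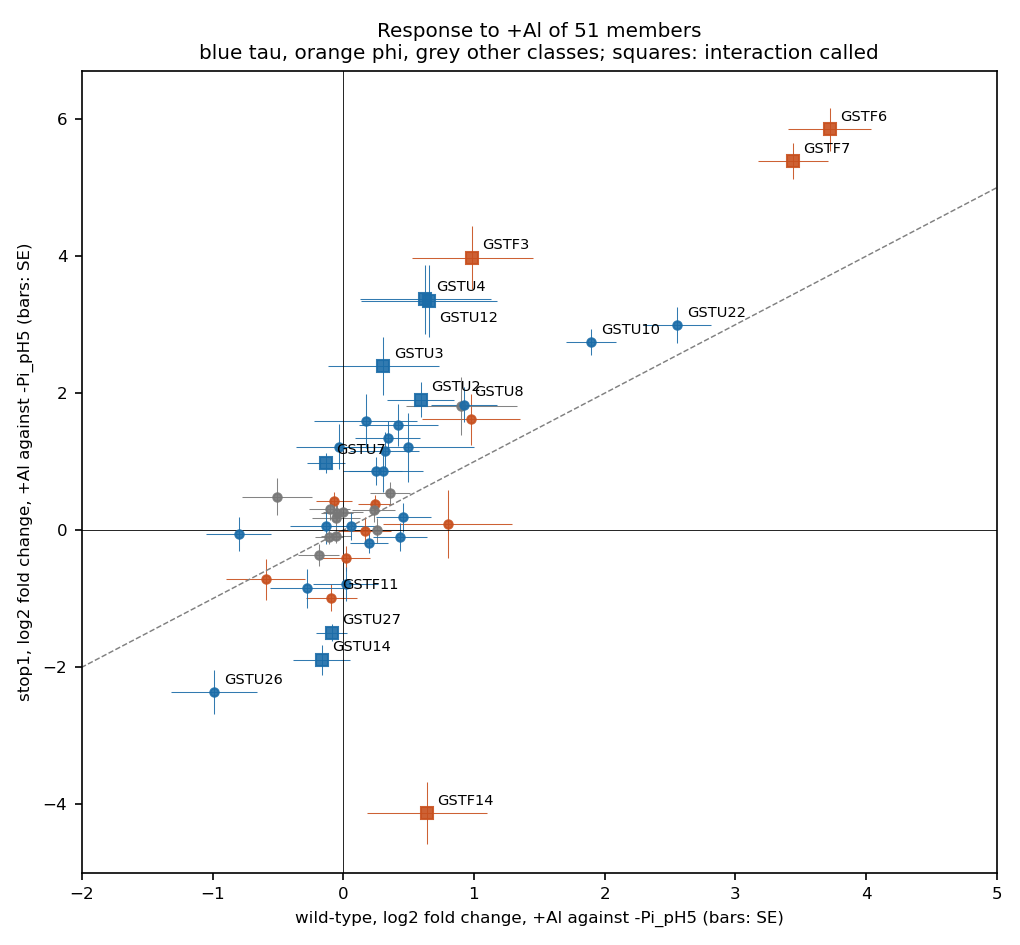
Log2 fold change with +Al in wild-type (horizontal axis) against that in *stop1* (vertical axis) for each of the 51 members, on the log2(CPM + 1) scale. *GSTF6* (3.72 and 5.85) and *GSTF7* (3.44 and 5.39) are far out in both, *GSTU4* and *GSTU12* in *stop1*, and *GSTF14* is at 0.64 in wild-type and -4.13 in *stop1*.

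The metal media were also set against each other within each genotype, a comparison added after the data had been seen, in which phosphate differs as well as the metal. In wild-type 2 members were higher in +Al than in ++Fe and 21 were lower, where 8.10% of all genes were higher and 11.3% lower. The 21 included *GSTU1* to *GSTU8*. Fewer members were called lower without wild-type +Al replicate 1, and without the 5 libraries highest in leaf markers, that one included. In the latter fit fewer of all genes were called lower as well. With only the libraries compared 7 members were lower, where 2.37% of all genes were. In *stop1* 10 members were higher and 13 lower, where 13.6% and 16.6% of all genes were called, and without *stop1* ++Fe replicate 1 the higher members numbered 5. *GSTU12* was at 28.8 and 22.6 CPM in *stop1* +Al and at 1.39 and 2.52 CPM in *stop1* ++Fe (log2 difference 3.19, SE 0.52, limma adjusted p = 0.00027). *GSTU26* was the reverse, at 20.9 and 15.1 CPM in +Al and at 222 and 159 CPM in ++Fe (-3.33, SE 0.33). *GSTF6* and *GSTF7* were higher in *stop1* +Al than in *stop1* ++Fe (1.52, SE 0.32, and 1.24, SE 0.27) and lower in wild-type +Al than in wild-type ++Fe (-1.78, SE 0.32, and -1.84, SE 0.27).

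Much of the superfamily stands in tandem clusters, whose members could be compared with their neighbours (positions from TAIR10.1). The cluster of *GSTU1* to *GSTU7* spans 12617936 to 12632538 on chromosome 2, all on the minus strand. With iron all 7 rose in wild-type and 6 in *stop1*, with aluminium 6 rose in *stop1* and 0 passed the limma test in wild-type (2 at an unadjusted p under 0.05), and the median log2 fold changes of the cluster were 2.07, 2.24, 1.35 and 0.32. *GSTU6* was the gene that stood aside in *stop1*, with values of 63.3 and 54.4 CPM in -Pi_pH5 and 64.9 and 48.7 CPM in +Al (-0.06, SE 0.25). *GSTU1*, which carries the motif pair printed above, was at 43.9 and 51.9 CPM in *stop1* -Pi_pH5 and at 136 and 112 CPM in *stop1* +Al (1.35, SE 0.25, limma adjusted p = 0.00042). *GSTU7*, with the other pair, was at 31.9 and 41.4 CPM and at 79.2 and 67.0 CPM (0.98, SE 0.14). *GSTU4*, without the motif, had the largest log2 change of the cluster (3.37), from a lower starting level.

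In other tau clusters neighbours were called in opposite directions. In *GSTU24* to *GSTU26* on chromosome 1 (5869543 to 5876620) all 3 rose with iron in both genotypes, but with aluminium in *stop1* the first 2 rose (log2 fold changes 1.54 and 1.59) and *GSTU26* fell, from 84.5 and 108 to 20.9 and 15.1 CPM (-2.36, SE 0.33, limma adjusted p = 2.8e-05). *GSTU26* was the single member called higher in one of the 4 metal comparisons and lower in another. The cluster of *GSTU19* to *GSTU23* (chromosome 1, 29467412 to 29488007) was also divided. *GSTU19* and *GSTU22* rose with iron in both genotypes and with aluminium in *stop1*, *GSTU23* passed none of these tests, and *GSTU21* fell. *GSTU20*, an enzyme linked to aliphatic glucosinolate synthesis and to far-red light signalling, fell with iron in *stop1* (-0.66, SE 0.20, adjusted p = 0.038). That call passed in 9 of 16 alternative analyses. It was lost without any 1 of the 4 libraries compared (-0.54 to -0.78), with the *stop1* labels exchanged (-0.33) and with -Pi_pH5 as the control (-0.16, adjusted p = 0.69). In the pair *GSTU13* and *GSTU14*, *GSTU14* fell with aluminium in *stop1* while *GSTU13* did not pass the test (-0.19, SE 0.14).

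In the phi cluster on chromosome 1 (658578 to 666471), *GSTF4* moved little beside *GSTF6* and *GSTF7*. It was at 14.6 and 14.9 CPM in *stop1* -Pi_pH5 and at 20.4 and 19.9 CPM in *stop1* +Al (log2 fold change 0.43, SE 0.14, limma adjusted p = 0.026). The theta cluster (chromosome 5, 16492275 to 16500865) passed the test in none of the 4 metal comparisons. At an unadjusted p under 0.05 it had 1 call, in wild-type ++Fe, where *GSTT1* had a log2 fold change of 0.24 (SE 0.12).

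**Figure D5:**
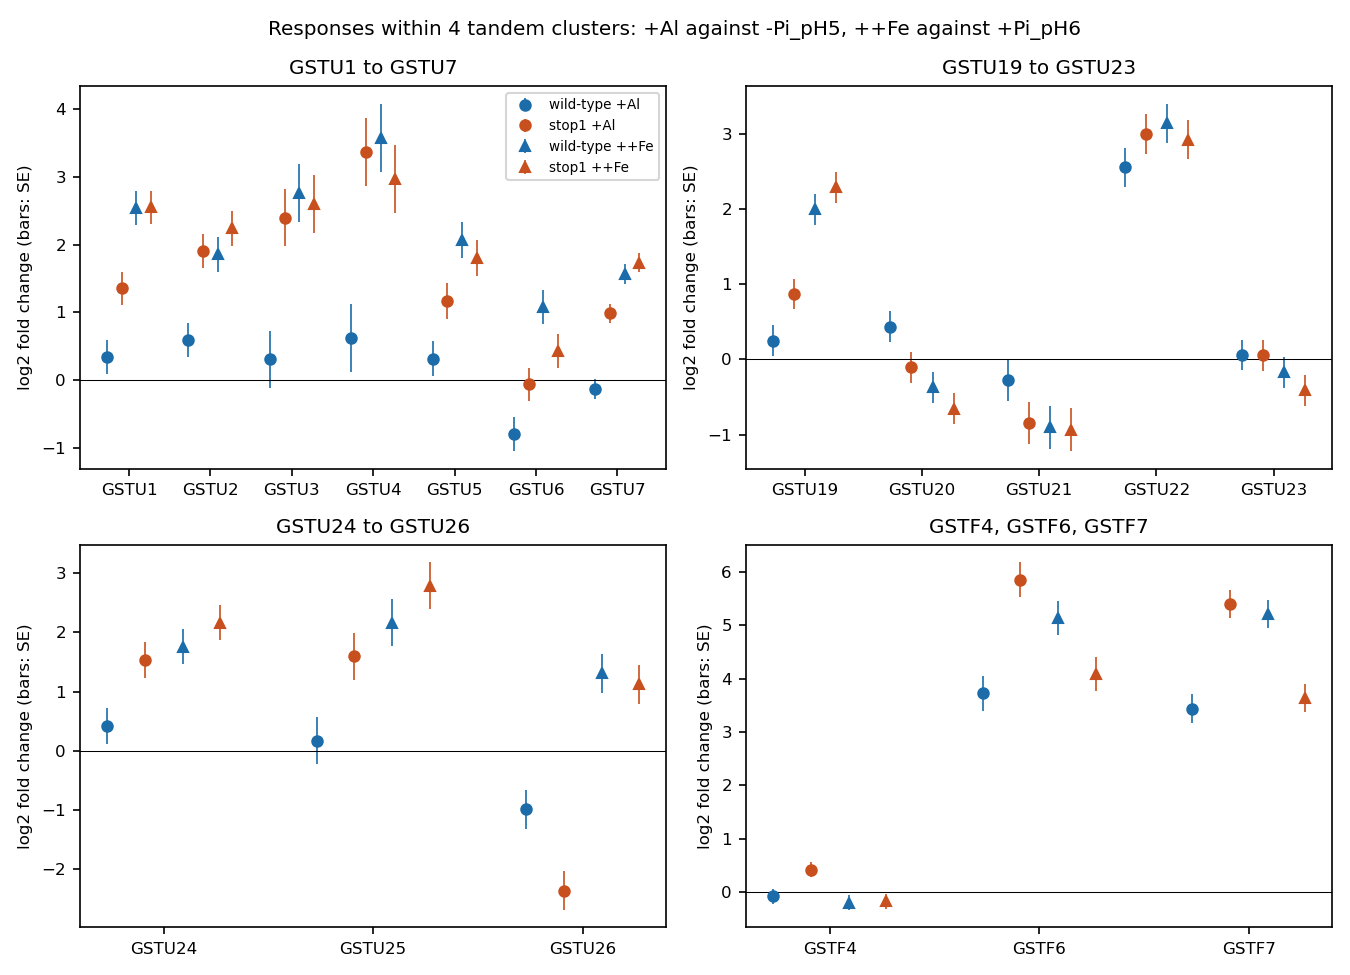
Log2 fold changes (vertical axes, bars SE) of the members of 4 tandem clusters in the 4 metal comparisons, with circles for +Al, triangles for ++Fe and the genotypes in 2 colours. The points of *GSTU1* to *GSTU7* lie between 1.08 and 3.58 with iron in wild-type, while *GSTU24* to *GSTU26* spread from -2.36 to 1.59 with aluminium in *stop1*.

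Fewer members fell than rose. Of 51 members 0 fell with aluminium in wild-type and 7 in *stop1*, where 1.37% and 15.6% of all genes fell. With iron 2 fell in wild-type and 3 in *stop1*, where 9.38% and 5.59% of all genes fell. In *stop1* the members' shares were near those of all genes. Over the 4 metal comparisons 7 members were called lower in at least 1 and higher in none, a pattern not counted over all genes. They were *GSTF11*, *GSTF14*, *GSTU14*, *GSTU20*, *GSTU21*, *GSTU27* and *GSTU28*. The largest change was that of *GSTF14* (AT1G49860), a phi gene. Its level in wild-type was 297 and 566 CPM in +Pi_pH6, 85.7 and 100 CPM in -Pi_pH5, 148 and 141 CPM in +Al and 20.7 and 60.7 CPM in ++Fe. In *stop1* it was 285 and 396 CPM in +Pi_pH6, 68.3 and 29.2 CPM in -Pi_pH5, 2.48 and 0.971 CPM in +Al and 4.66 and 8.46 CPM in ++Fe. The wild-type and *stop1* libraries overlapped in +Pi_pH6 and were separate in both metal media. In +Al the *stop1* level was lower by 5.80 on the log2 scale (log2 difference -5.80, SE 0.46, limma adjusted p = 1.3e-07). The fall from -Pi_pH5 to +Al in *stop1* was called (-4.13, SE 0.46), and the wild-type value was 0.64 (SE 0.46, adjusted p = 0.57). The root marker sum was also lowest in *stop1* +Al, as given above, and its part in this fall was not tested.

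*GSTU27* was at 117 and 111 CPM in *stop1* -Pi_pH5 and at 43.9 and 36.2 CPM in *stop1* +Al (log2 fold change -1.49, SE 0.12), and in wild-type at 92.0 and 92.8 CPM and then 87.0 and 86.7 CPM (-0.09, SE 0.12). *GSTU14* was at 30.3 and 31.4 CPM and then 7.07 and 8.15 CPM in *stop1* (-1.89, SE 0.22). *GSTF11*, known from aliphatic glucosinolate synthesis, went from 38.4 and 31.5 to 19.5 and 15.05 CPM in *stop1* (-0.98, SE 0.20). None of these 3 passed the test with iron in either genotype. *GSTU21* held 24 and 14 reads in *stop1* -Pi_pH5 and 1 and 1 in *stop1* +Al, an 18.9-fold ratio with a counting interval of 4.89 to 162. *GSTU28* fell in *stop1* +Al as well (-0.78, SE 0.25, limma adjusted p = 0.022). The *stop1* +Al calls of *GSTU21* and *GSTU28* each passed in 12 of 15 alternative analyses. Each was lost without either *stop1* +Al library and without *stop1* -Pi_pH5 replicate 1, where the log2 fold changes were -0.65 for both.

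Low phosphate and acidity without a metal moved few members. Against +Pi_pH6, limma called 0 members in wild-type -Pi_pH6 (0.166% of all genes), 0 in wild-type +Pi_pH5 (0.0293%) and 0 in *stop1* +Pi_pH5 (0.0782%). At an unadjusted p under 0.05 these counts were 6, 3 and 5, and edgeR's tests and DESeq2 called 0 in each. The share of all genes at that unadjusted threshold was not counted, so these counts are not read as responses of the members. In wild-type -Pi_pH5 2 were lower, where 0.963% of all genes were lower and 0.474% higher. In *stop1* -Pi_pH5 4 were higher and 2 lower, where 0.724% and 0.875% of all genes were called, and without *stop1* -Pi_pH5 replicate 2 the count was 0. In *stop1* -Pi_pH6 2 were lower, where 0.523% of all genes were lower and 0.474% higher. If the labels of *stop1* +Pi_pH5 and *stop1* +Pi_pH6 were exchanged, 1 member was called in *stop1* -Pi_pH5 and 0 in *stop1* -Pi_pH6. The lower members were *GSTF14* and *GSTL1* in -Pi_pH5 and *GSTL1* and *GSTU10* in *stop1* -Pi_pH6.

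*GSTL1*, a lambda gene, was called lower in 3 of these comparisons, each time in a medium without phosphate, but it was not called in wild-type -Pi_pH6. The sum of *GSTL1* and *GSTL3* was also lower in *stop1* +Pi_pH5, which holds phosphate (62.1 and 56.6 CPM). That sum was 109 and 84.8 CPM in *stop1* +Pi_pH6 and 48.4 and 51.3 CPM in *stop1* -Pi_pH6. In *stop1* *GSTL1* was at 70.2 and 45.4 CPM in +Pi_pH6, at 8.03 and 8.48 CPM in -Pi_pH6 (log2 fold change -2.63, SE 0.42, limma adjusted p = 0.0030) and at 17.2 and 7.39 CPM in -Pi_pH5 (-2.22, SE 0.42). In wild-type it was at 56.1 and 31.0 CPM in +Pi_pH6 and at 12.5 and 8.63 CPM in -Pi_pH5 (-1.91, SE 0.42, adjusted p = 0.031). The *stop1* -Pi_pH6 call was lost with the *stop1* labels exchanged, and the wild-type -Pi_pH5 call was lost with only the libraries compared. In each genotype the higher +Pi_pH6 value was that of replicate 1, which held 295 CPM of leaf markers in *stop1* and 136 CPM in wild-type. The *stop1* -Pi_pH6 call was also lost without that *stop1* +Pi_pH6 replicate 1, and without the 5 libraries highest in leaf markers. The wild-type -Pi_pH5 call was lost without +Pi_pH6 replicate 2 and without either -Pi_pH5 library. Such fits leave 1 library in a condition, and the part of the leaf markers themselves was not tested. With aluminium *GSTL1* then rose in *stop1*, to 52.0 and 34.9 CPM (1.82, SE 0.42, adjusted p = 0.0032). The 4 members higher in *stop1* -Pi_pH5 than in *stop1* +Pi_pH6 were *GSTU2*, *GSTU8*, *GSTU22* and *GSTU24*, with log2 fold changes of 1.104 to 1.24. Between the genotypes in these media, limma called 0 members in +Pi_pH6 (0.191% of all genes, 9 members at an unadjusted p under 0.05, 1 by edgeR's likelihood ratio test and 0 by DESeq2) and 0 in +Pi_pH5 (0.406% of all genes, 2 members at an unadjusted p under 0.05, 0 by the other tools). In -Pi_pH6 it called *GSTF4*, higher in *stop1* (0.81, SE 0.14, 0.533% of all genes), and without wild-type -Pi_pH6 replicate 1 it called 10 members. In -Pi_pH5 it called *GSTU22*, at 18.6 and 18.8 CPM in wild-type and 60.3 and 58.3 CPM in *stop1* (1.62, SE 0.26, 0.587% of all genes).

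Members of the small classes were called as well, *GSTL1* above among them. In the zeta class *GSTZ1*, maleylacetoacetate isomerase of tyrosine breakdown, went from 90.9 and 105 to 178 and 174 CPM with iron in wild-type (log2 fold change 0.84, SE 0.17, limma adjusted p = 0.0017) and rose by 0.85 in *stop1*. *GSTL3* rose with iron in both genotypes (0.66, SE 0.10, and 0.49, SE 0.10). Among the dehydroascorbate reductases *DHAR2* rose with iron in wild-type (0.46, SE 0.15, adjusted p = 0.041), a call that passed in 10 of 15 alternative analyses (0.30 to 0.61). *DHAR1* and the plastid form *DHAR3* passed none of the 4 metal tests. *DHAR1* shares 15.4% of its 50-base stretches with other places in the genome. *TCHQD* rose with aluminium in *stop1*, from 6.22 and 7.34 to 9.87 and 10.8 CPM (0.54, SE 0.15). *GSTF12* had its highest values in *stop1* +Pi_pH6 replicate 1 (3.52 CPM), wild-type +Pi_pH6 replicate 1 (2.65 CPM) and wild-type +Al replicate 1 (1.28 CPM), all 3 among the libraries over 100 CPM of leaf markers. In *stop1* +Pi_pH6 it held 64 and 3 reads, and in *stop1* ++Fe 0 and 0 reads. The reads of the former are thus nearly all from replicate 1, and no fold is given. The 13 members called in none of the 4 metal comparisons also included *GSTU11*, *GSTU13*, *GSTU23*, *GSTF10*, *GSTF13*, *GSTL2*, *GSTZ2* and the theta genes.

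Genes that work beside the GSTs were counted in lists chosen by function. For comparison, the shares of all genes called were 12.3% higher and 9.38% lower with iron in wild-type, 9.16% and 5.59% with iron in *stop1*, 2.63% and 1.37% with aluminium in wild-type, and 15.4% and 15.6% with aluminium in *stop1*. Of 8 genes of glutathione synthesis and recycling, 3 rose and 1 fell with iron in wild-type, and 3 rose in *stop1*. *GSH1*, which encodes the enzyme of the first step of glutathione synthesis, went from 352 and 328 to 679 and 720 CPM with iron in wild-type (log2 fold change 1.04, SE 0.12, limma adjusted p = 9.5e-06) and rose by 0.78 in *stop1*. With aluminium 4 of the 8 rose in *stop1*, and in wild-type 0 passed the limma test, with or without adjustment of p. *GGCT2;1*, a glutathione-degrading cyclotransferase, rose from 3.45 and 1.75 to 12.6 and 9.56 CPM in *stop1* +Al (1.77, SE 0.40), and glutathione reductase *GR1* by 0.68 (SE 0.11).

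Of 5 vacuolar pumps, 2 rose with aluminium in *stop1*, among them *ABCC3*, from 33.8 and 39.8 to 106 and 88.3 CPM (1.38, SE 0.20), with an interaction of 1.202 (SE 0.29, limma adjusted p = 0.017). With iron 1 pump fell in wild-type and 2 rose in *stop1*. Of 6 xenobiotic response enzymes, 4 rose with iron in wild-type and 3 in *stop1*, and 2 rose with aluminium in *stop1*. *CYP81D11*, a cytochrome P450 gene, went from 1.94 and 0.25 to 30.2 and 12.1 CPM in wild-type (3.40, SE 0.53). Of 8 genes for TGA factors and their coactivator SCL14, 1 was called with aluminium in wild-type, where *TGA3* rose (0.49, SE 0.12, limma adjusted p = 0.029), and *TGA7* did not pass the test (0.62, SE 0.17, adjusted p = 0.057). In *stop1* +Al *TGA3* rose (0.80, SE 0.12) and *TGA1* (-0.84, SE 0.12) and *TGA4* (-0.76, SE 0.14) fell. With iron in wild-type *TGA3* rose (0.52, SE 0.12) and *TGA1* fell (-0.61, SE 0.12), and in *stop1* 0 passed the limma test (1 at an unadjusted p under 0.05). Between the genotypes in +Al *TGA3* was higher in *stop1* (0.38) and *TGA1* (-0.69), *TGA4* (-0.48) and *TGA7* (-1.24) were lower. Of 7 glutathione peroxidase-like genes 1 (14.3%) rose with iron in wild-type and 1 fell with aluminium in *stop1*, shares near those of all genes. Of 7 anthocyanin pathway genes, 4 fell with iron in wild-type and 5 in *stop1*, and 2 fell with aluminium in *stop1*.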

How the data were processed

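RNA-seq of root tips from 24 samples (2 genotypes, 6 media, 2 replicates each) was analysed from the deposited table, with groups taken from the labels. Per the methods and the submitters' processing notes, the authors aligned paired reads with HISAT2 2.1.0 to TAIR10, counted them on genes with HTSeq 0.11.2 and normalised them with edgeR 3.28.0. The strand setting of the counting is not given in the sources used here, and 13 members overlap a gene on the opposite strand and 4 on the same strand. The deposited values are a normalised signal, CPM scaled by TMM factors (0.947 to 1.05). Whole reads were recovered for 100% of the values (tolerance 0.001 reads), and 0 columns of values were left unused.

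Log2(CPM + 1) values were fitted in limma (version 3.58.1, under R 4.3.3) with a mean-variance trend, 12 condition coefficients and Benjamini-Hochberg adjustment over 20450 genes. A fold change on this scale understates changes of low members. For members near 3 reads, ratios of scaled reads with exact 95% intervals were used. All members are accounted for, and up to 8 members per metal comparison with the largest called changes are given with values, along with those the study names. The members and lists were chosen with earlier results of these data known. The tests were tested on simulated data. The alternatives were edgeR 4.0.16 likelihood ratio and quasi-likelihood tests and DESeq2 1.42.0 on recovered reads, a pseudocount of 0.1 CPM, a mean CPM of at least 1, library size only, RLE factors, only the libraries compared, other control media, exchanged *stop1* labels, the replicate number as a block, and each library left out in turn. Leaving out 5 libraries and the +Al against ++Fe comparisons were added after seeing the data. Promoter sequences and positions came from RefSeq TAIR10.1, and 53 of 53 members were matched by locus. Tables and figures were made with Python 3.11.15, numpy 2.4.6, pandas 2.3.3 and matplotlib 3.10.9.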

Additional observations from a re-analysis of the deposited data

Results flagged for a closer look

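The change from -Pi_pH5 to +Al differed between wild-type and *stop1* for 11 members by the interaction test in limma. The log2 differences of the fold changes, *stop1* minus wild-type, were 2.99 for *GSTF3*, 2.74 for *GSTU4*, 2.69 for *GSTU12*, 2.13 for *GSTF6*, 2.09 for *GSTU3*, 1.95 for *GSTF7*, 1.31 for *GSTU2* and 1.12 for *GSTU7*. They were -4.77 for *GSTF14*, -1.72 for *GSTU14* and -1.40 for *GSTU27*. Of 19 alternative analyses *GSTF6* was called in 15, *GSTF3* in 13, *GSTU2* in 10, *GSTU4* in 9, *GSTU12* in 8 and *GSTU3* in 7. The others were called in 18 or 19. *GSTF14* is the only one of the 11 whose wild-type value was positive (0.64, not called) and whose *stop1* value was negative (-4.13). Groups of 2 libraries are too small for a search for deviating samples, and the libraries that stand apart by their markers are given in the report.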

How the results depend on the processing

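The counts of members called were within 1.5 times the value given in 270 of 321 alternative counts, no direction was reversed, and of 882 values of single members under the planned and added settings 65 lost their call. With each library left out in turn, 70 of 368 values of single members lost their call and 56 of 720 counts moved. For single members only libraries of the comparison itself were left out. The counts that moved are given by setting, and unless the setting itself shows the cause (fewer libraries), the cause was not tested. The shares of all genes called changed with the setting too, so a moved count is not by itself a result about the members. With only the libraries compared, 2.37% of all genes were lower in wild-type +Al against ++Fe, where the main fit gave 11.3%. In the +Al interaction 1.88% were higher, where the main fit gave 2.89%. With edgeR's likelihood ratio test 2 members were lower in wild-type +Al, 5 higher and 5 lower in the +Al interaction, 5 lower in *stop1* ++Fe, 1 lower in the ++Fe interaction, and 4, 10, 1 and 2 were called in *stop1* -Pi_pH6, in *stop1* -Pi_pH5, and between the genotypes in +Pi_pH6 and -Pi_pH6. With the quasi-likelihood test 3 were higher in the +Al interaction, 1 lower in wild-type ++Fe and 5 lower in *stop1* ++Fe. With DESeq2 2 were lower in wild-type +Al, 4 higher and 5 lower in the +Al interaction, 5 lower in *stop1* ++Fe, 1 lower in the ++Fe interaction, and 4, 10, 4 and 4 were called in *stop1* -Pi_pH6, in *stop1* -Pi_pH5, and between the genotypes in -Pi_pH6 and -Pi_pH5. A pseudocount of 0.1 gave 4 higher in the +Al interaction. With only the libraries compared, 4 were higher in the +Al interaction, 1 lower in wild-type ++Fe, 0 higher and 0 lower between the genotypes in ++Fe, 0 called in wild-type -Pi_pH5, 5 in *stop1* -Pi_pH6, 0 between the genotypes in -Pi_pH6, and in wild-type +Al against ++Fe 1 was higher and 7 lower. With +Pi_pH6 as the control of +Al, which adds the differences in phosphate and pH, 10 were higher and 1 lower in wild-type, 12 lower in *stop1*, and 13 higher and 5 lower in the interaction. With -Pi_pH5 as the control of ++Fe 1 was lower in each genotype. With the *stop1* labels exchanged 1 was lower in *stop1* ++Fe, 0 were called in *stop1* -Pi_pH6, 1 in *stop1* -Pi_pH5 and 1 between the genotypes in +Pi_pH5. Without the 5 libraries highest in leaf markers 8 were higher in wild-type +Al, 3 lower between the genotypes in +Al, 1 higher in the +Al interaction, 0 higher between the genotypes in ++Fe, 1 called in *stop1* -Pi_pH6, 3 in *stop1* -Pi_pH5, and 0 higher and 8 lower in wild-type +Al against ++Fe.

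Leaving out each library in turn, the higher and lower counts ran from 4 to 10 and 0 to 1 in wild-type +Al, 17 to 24 and 5 to 7 in *stop1* +Al, 17 to 26 and 4 to 6 between the genotypes in +Al, 3 to 13 and 3 to 4 in the +Al interaction, 20 to 24 and 1 to 3 in wild-type ++Fe, 18 to 22 and 1 to 4 in *stop1* ++Fe, 0 to 1 and 0 to 2 between the genotypes in ++Fe, and 0 to 1 lower in the ++Fe interaction. They ran from 0 to 2 and 10 to 25 in wild-type +Al against ++Fe and from 5 to 11 and 9 to 14 in *stop1*. Calls in either direction ran from 0 to 2 in wild-type -Pi_pH5, 0 to 3 in *stop1* -Pi_pH6, 0 to 8 in *stop1* -Pi_pH5, and 0 to 10 and 0 to 1 between the genotypes in -Pi_pH6 and -Pi_pH5. The libraries that moved the +Al interaction most were wild-type +Al replicates 1 (3 higher) and 2 (13 higher) and *stop1* -Pi_pH5 replicate 1 (3 higher). Where a condition was left with 1 library, that library was taken to vary like those of the other conditions.

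With the replicate number as a block, 3 members were called between the genotypes in -Pi_pH6, and no other count moved by over 1.5 times. The labels do not say what a replicate number shares, and over 66 pairs of conditions the correlation of same-numbered deviations had a median of 0.126 and ran from -0.379 to 0.524, so the numbers were not treated as pairs.

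With 2 libraries per condition, a member that missed the threshold was not shown to be unchanged. Members near the limit of detection, such as *GSTF3*, *GSTU21* and *GSTF12*, have log2 values that depend on the pseudocount, and their read ratios cover counting error only. P-values measure the spread between pooled samples. Wild-type +Al, with the most dissimilar replicates, limits each comparison that uses it.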
